A study of Mus musculus with 39 samples.

Results

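The T cell receptor complex and its co-receptors were followed here through 10 genes out of the 39179 in the deposited count table: Cd3d, Cd3e, Cd3g and Cd247 of the receptor complex, the co-receptors Cd8a, Cd8b1 and Cd4, the surface molecules Cd2 and Cd6, and the kinase Lck. They were chosen by name, with earlier results of these data known, and all 10 passed the filter on low counts. The libraries came from bulk tumours of a Braf-mutated melanoma in C57BL/6 mice, with treatment starting 7 days after tumour cells were injected. Combination tumours received an antibody to PD-1, given every few days in doses of 200 µg, together with EPAT, antagonists that block the EP2 and EP4 receptors of prostaglandin E2, given at 30 mpk in 200 µl. Anti-PD-1 tumours and EPAT tumours received 1 of these agents, and vehicle tumours received the DMSO, PEG and water mixture alone. Tumours were labelled day 5 or day 2 of treatment, with 5 libraries in each treatment and day and 4 for anti-PD-1 on day 2, making 8 groups and 39 libraries. All tumours carried the Braf mutation of the injected cells. The labels give no name for the line and no count of animals, so p-values here speak only for the scatter between these libraries, which may be technical. The labels' extraction protocol names day 4, which is neither of the time points, and the groups follow the day given for each tumour. For 3 libraries, replicate 5 of the anti-PD-1 tumours on day 5, replicate 1 of the EPAT tumours on day 5 and replicate 5 of the EPAT tumours on day 2, the title carries the number that the remaining libraries of the other day of the same treatment carry. These 3 also follow the day given for each tumour, and values that moved most without them are given beside the results.

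A T cell receptor recognises a peptide held by an MHC molecule, and the signal enters the cell through the CD3 chains and the zeta chain encoded by Cd247. CD8, a dimer of the Cd8a and Cd8b1 products, binds MHC class I and marks cytotoxic T cells, while CD4 binds MHC class II and marks helper and regulatory T cells. Both co-receptors bring the kinase LCK to the receptor, where it phosphorylates the CD3 and zeta chains, and anti-PD-1 antibodies block an inhibitory receptor of activated T cells.

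Values are 3′ tag counts scaled to a common library total (CPM), with library sizes adjusted by the trimmed mean of M values (TMM). Each transcript gives tags near its poly(A) end, so CPM carries no gene length term. Library totals ran between 8385741 and 15558113 counts. Of the melanoma lineage markers, Mitf had a median of 45.4 CPM over the libraries, whereas Tyrp1 had no count in any library and Mlana, Tyr and Dct reached at most 0.259 CPM. In bulk tissue, fewer T cells and less RNA per T cell cannot be told apart. Replicate 2 of the combination tumours on day 2 stood apart in nearly lacking T cell transcripts, with 1 Cd8a tag and a summed level of 15.0 CPM over the 10 genes, against 52.8 to 609 CPM in the other libraries. Replicate 1 of the vehicle tumours on day 2 stood apart in lymph node transcripts, with 528 CPM summed over the lymph node venule markers and 449.5 CPM over the B and plasma cell markers. Glycam1 alone gave 525 CPM of the venule sum, while the other venule markers had few tags or none. The same library also had the highest level of the adipocyte markers Adipoq and Cfd, at 239 and 805 CPM. Results on day 2 are therefore given with and without these libraries.

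Cd3d and Cd3g lie head to head on chromosome 9, at chr9:44981786-44987339 on the plus strand and chr9:44969572-44980431 on the minus strand of GRCm38, with annotated starts 1355 bases apart. Cd3e lies in the same stretch at chr9:44998740-45009627 on the minus strand, and its annotation overlaps an antisense gene, Gm48719. Cd8a, at chr6:71373427-71379173, and Cd8b1, at chr6:71322788-71337494, are neighbours on the plus strand of chromosome 6 with starts 50639 bases apart, and Cd4 lies elsewhere on that chromosome at chr6:124864692-124888221 on the minus strand. Promoters are shown for the 3 CD3 genes and Cd8a, which are among the genes whose tags moved most closely together across the libraries. Lck tags moved as closely with those of the CD3 genes as Cd8a tags did, and its promoters are not shown. Each is the RefSeq sequence of GRCm38.p6 covering 250 bases before and 50 after the start site, written 5′ to 3′ along the gene, at chr9:44981536-44981835 on the plus strand, chr9:44980382-44980681 and chr9:45009562-45009861 on the minus strand and chr6:71373177-71373476 on the plus strand. Capitals mark the letters AGGAAG (an ETS core), TGTGGT (a RUNX core), CAGCTG (an E-box) or AGATAA (bound by GATA factors) on either strand.
Cd3d: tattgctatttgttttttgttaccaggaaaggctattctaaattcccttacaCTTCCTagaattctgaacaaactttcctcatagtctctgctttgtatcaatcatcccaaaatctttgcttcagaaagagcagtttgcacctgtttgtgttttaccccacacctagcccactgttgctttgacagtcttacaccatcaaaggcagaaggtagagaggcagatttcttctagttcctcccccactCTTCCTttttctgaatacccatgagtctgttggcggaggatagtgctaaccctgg
Cd3g: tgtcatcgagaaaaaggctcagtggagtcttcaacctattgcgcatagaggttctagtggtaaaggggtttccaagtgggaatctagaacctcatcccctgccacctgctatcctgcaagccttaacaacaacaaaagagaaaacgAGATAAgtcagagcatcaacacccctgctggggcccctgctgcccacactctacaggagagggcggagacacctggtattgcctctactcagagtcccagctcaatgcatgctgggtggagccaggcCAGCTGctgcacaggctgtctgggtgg
Cd3e: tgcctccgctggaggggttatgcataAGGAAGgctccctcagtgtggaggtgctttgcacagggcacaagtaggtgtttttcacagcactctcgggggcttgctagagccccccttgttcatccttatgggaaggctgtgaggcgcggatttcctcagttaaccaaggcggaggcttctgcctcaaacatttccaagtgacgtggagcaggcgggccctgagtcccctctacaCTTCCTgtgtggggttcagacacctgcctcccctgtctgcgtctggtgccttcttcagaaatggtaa
Cd8a: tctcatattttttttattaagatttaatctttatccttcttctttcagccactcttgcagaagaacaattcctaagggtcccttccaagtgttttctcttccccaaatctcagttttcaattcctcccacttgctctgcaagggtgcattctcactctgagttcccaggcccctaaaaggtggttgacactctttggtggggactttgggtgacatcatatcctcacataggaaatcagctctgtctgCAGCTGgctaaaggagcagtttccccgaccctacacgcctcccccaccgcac
Cd3d and Cd3e each held 2 ETS cores in this window. Cd3g held 1 E-box and 1 GATA site, and Cd8a held 1 E-box. The table gave 7 promoters for 6 of the 10 genes, since Lck had more than 1. The ETS core was in 5 of these 7 promoters, among them those of Lck, against 35.4% of the 32851 promoters in the table. The E-box was in 2 of 7, against 16.3% of all promoters, the GATA site in 1 of 7 against 11.2%, and the RUNX core in 1 of 7 against 16.8%. These counts describe letters in the windows.

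On day 5, all 10 genes had a higher mean in combination tumours and in anti-PD-1 tumours than in vehicle tumours, by about 1 unit on the log2 scale, yet no gene passed the test in any comparison. The median log2 fold change over the 10 genes was 1.08 for combination against vehicle, with a range of 0.72 to 1.60, and 1.04 for anti-PD-1 against vehicle, with a range of 0.80 to 1.49. It was 0.34 for EPAT against vehicle, with a range of 0.13 to 1.22, and 0.14 with the 3 libraries left out whose titles carry the number of the other day. The median over all 15070 genes tested was -0.01, 0.02 and -0.01 in these comparisons. Fold changes above 0 were found in 49.0%, 52.4% and 47.9% of all genes.

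With edgeR's quasi-likelihood test and Benjamini-Hochberg adjustment, 0 of the 10 genes had an adjusted p under 0.05 for combination against vehicle on day 5, where 0.0265% of all genes did. At an unadjusted p under 0.05, 5 of the 10 genes were higher, against 7.21% of all genes tested, namely Cd2, Cd6, Cd8b1, Cd3e and Lck. For anti-PD-1 against vehicle, 0 of 10 passed where 0% of all genes did, and 4 of 10 were higher at an unadjusted p under 0.05, against 4.57% of all genes. Without the 3 libraries named for their titles this count was 8 of 10, against 6.98% of all genes, and 0 of 10 passed. For EPAT against vehicle, 0 of 10 passed, where 0% of all genes did. None of the 10 had an unadjusted p under 0.05, where 1.7% of all genes did. DESeq2 and limma-trend also called 0 of 10 in each of these comparisons. For combination against vehicle on day 5, 6 of 10 genes were higher at an unadjusted p under 0.05 with DESeq2, against 5.29% of all genes with a p there. With limma-trend 2 of 10 were, against 7.78% of all genes. For anti-PD-1 against vehicle on day 5, 7 of 10 were higher with DESeq2, against 3.77% of all genes with a p there. With limma-trend 1 of 10 was, against 2.32% of all genes, and the median log2 fold change was 0.73. The 10 genes varied together across the libraries, so these counts are not counts of separate events.

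Single libraries set much of these sizes. Replicate 4 of the anti-PD-1 tumours on day 5 had the highest level of all libraries in 9 of the 10 genes. Without it the median log2 fold change of anti-PD-1 against vehicle was 0.47, and that of combination against anti-PD-1 was 0.59 in place of 0.07. Without the 3 libraries named for their titles the median of combination against anti-PD-1 was -0.10. Without replicate 3 of the vehicle tumours, the highest of its group in all 10 genes, the median of combination against vehicle was 1.29. The smallest adjusted p among the 10 genes was then 0.0569 in edgeR's test, and 205 genes in all were called in place of 4. Leaving out the highest library of a group moves these fold changes by construction, so no result is read from the smaller adjusted p.

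**Figure D1:**
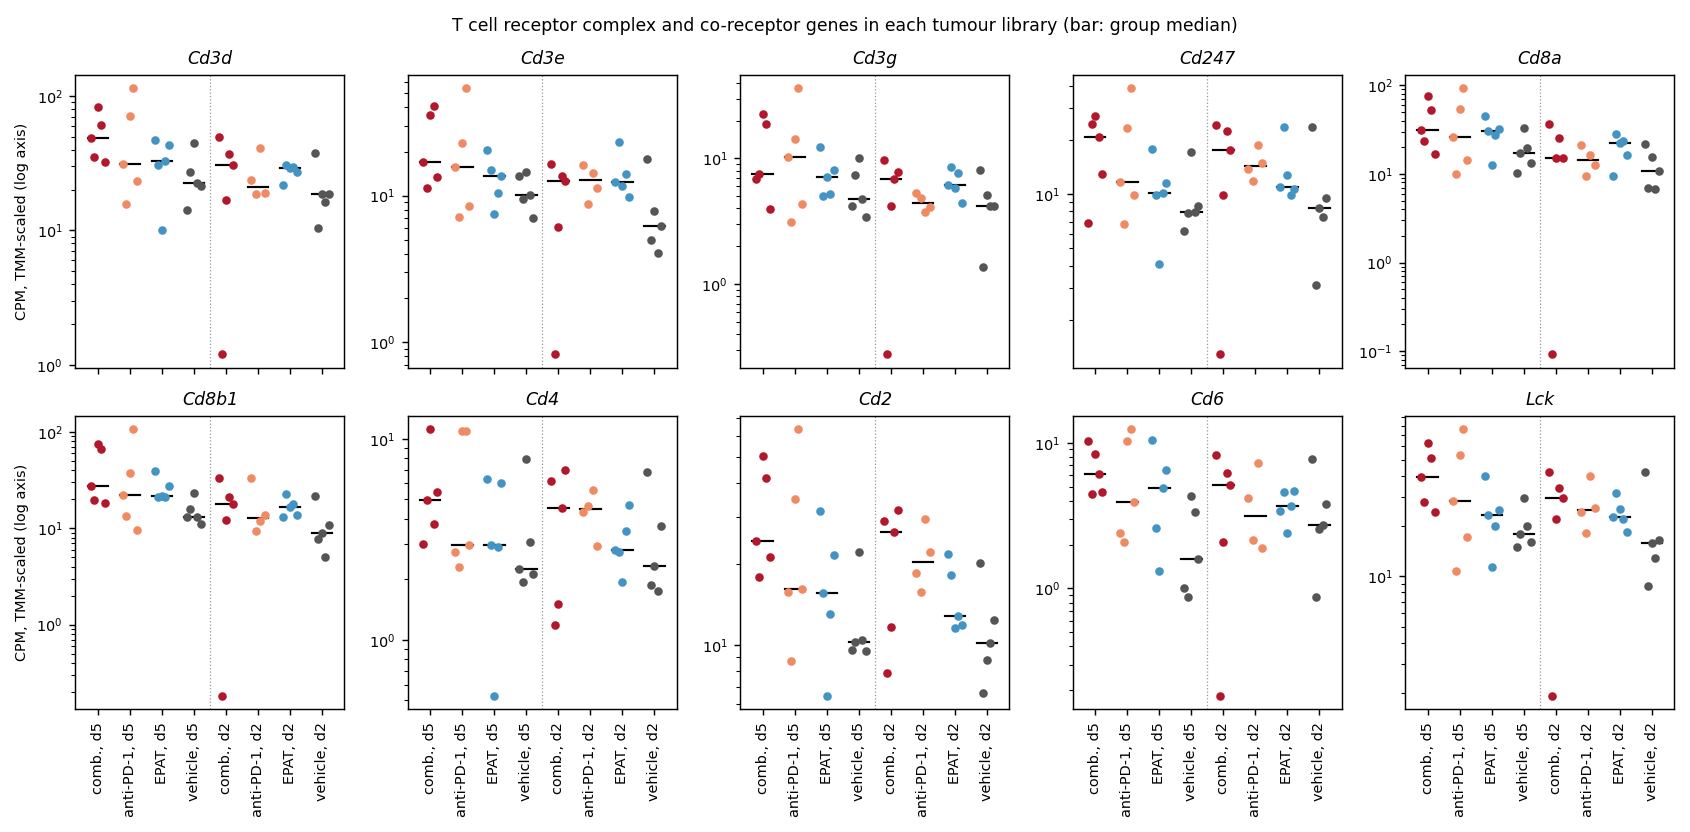
Level of each of the 10 genes in every library, in TMM-scaled CPM on a log axis, for combination (comb.), anti-PD-1, EPAT and vehicle tumours on day 5 (d5) and then day 2 (d2); points are libraries and bars are group medians. On day 5 the combination median lies above the vehicle median in every panel while the points overlap in all but Cd6, and 1 combination library of day 2 lies far below the rest, at 0.0917 CPM for Cd8a.

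In the receptor complex, Cd3e encodes the epsilon chain, which pairs with both the delta and the gamma chain. Cd3e had 16.9, 11.3, 35.6, 40.7 and 13.4 CPM in combination tumours on day 5, and 15.7, 7.13, 22.7, 54.4 and 8.47 CPM in anti-PD-1 tumours. It had 20.6, 14.9, 7.53, 10.3 and 13.6 CPM in EPAT tumours, and 13.6, 9.498, 14.5, 10.1 and 7.02 CPM in vehicle tumours. In the combination and the anti-PD-1 group 3 libraries each lay above every vehicle library, and the remaining ones lay within or near the vehicle range. The log2 fold change against vehicle was 1.12 ± 0.51 (SE) for combination tumours, with an adjusted p of 0.275 in edgeR's test. It was 0.99 ± 0.51 for anti-PD-1 tumours, with an edgeR adjusted p of 0.645.

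Cd3d, the delta chain, had the highest level of the receptor genes, with 52.0 ± 20.9 CPM in combination tumours, 51.3 ± 41.6 CPM in anti-PD-1 tumours, 32.7 ± 14.4 CPM in EPAT tumours and 25.97 ± 11.5 CPM in vehicle tumours on day 5 (SD, n = 5 each). Cd3g, the gamma chain, had the lowest, with 11.98 ± 8.25 CPM in combination, 13.7 ± 13.5 CPM in anti-PD-1, 7.53 ± 2.93 CPM in EPAT and 5.96 ± 2.72 CPM in vehicle tumours (SD, n = 5 each). Cd247 (chr1:165788681-165877277, plus strand), the zeta chain, which NK cells also express, had 18.5 ± 8.42 CPM in combination, 18.2 ± 13.2 CPM in anti-PD-1, 10.7 ± 4.87 CPM in EPAT and 9.51 ± 4.30 CPM in vehicle tumours. In each of these genes the SD within anti-PD-1 tumours was larger than the difference of the means. The constant chains of the receptor itself were thinly sampled: Trbc1 and Trbc2, for the beta chain, had medians of 3.35 and 6.81 CPM over the libraries, whereas Trac, for the alpha chain, had no tag in 20 of the 39 libraries and at most 0.630 CPM. Against vehicle on day 5, Trbc1 had a log2 fold change of 1.04 ± 0.43 and Trbc2 of 0.70 ± 0.49 in combination tumours (SE; edgeR adjusted p = 0.240 and 0.472).

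The CD8 co-receptor genes followed the receptor genes. Cd8a had 31.2, 23.4, 74.9, 52.1 and 16.9 CPM in combination tumours on day 5, and 26.1, 9.97, 53.5, 93.4 and 14.2 CPM in anti-PD-1 tumours. It had 44.8, 30.2, 12.7, 27.6 and 31.97 CPM in EPAT tumours, and 10.3, 17.1, 32.8, 19.8 and 13.3 CPM in vehicle tumours. The groups overlapped, since 3 combination libraries, 3 anti-PD-1 libraries and 4 EPAT libraries lay under the highest vehicle library. The log2 fold change against vehicle was 1.09 ± 0.59 in combination tumours, 1.08 ± 0.59 in anti-PD-1 tumours and 0.66 ± 0.59 in EPAT tumours (SE), and none passed edgeR's test. Cd8b1 had 27.3, 19.8, 75.3, 66.7 and 18.3 CPM in combination tumours against 13.1, 15.9, 23.2, 13.2 and 11.03 CPM in vehicle tumours, a log2 fold change of 1.45 ± 0.59 (SE; edgeR adjusted p = 0.239). Tags of the CD8 pair ran closely together: the Cd8a to Cd8b1 ratio lay between 0.587 and 1.75 in every library, with a mean log2 of 0.10 ± 0.38 (SD, n = 39), and Cd8b1 exceeded Cd8a in 15 libraries.

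Cd4 had the lowest median level of the 10 genes and the smallest fold change of the 10 in each treatment against vehicle on day 5. It had 3.01, 4.97, 11.2, 3.78 and 5.46 CPM in combination tumours, and 2.74, 2.31, 10.97, 10.96 and 2.96 CPM in anti-PD-1 tumours. It had 6.33, 2.97, 0.528, 2.89 and 6.00 CPM in EPAT tumours, and 2.26, 1.94, 7.95, 3.08 and 2.12 CPM in vehicle tumours. Most treated libraries lay inside the vehicle range, which a single vehicle library, replicate 3, widened. The log2 fold change against vehicle was 0.72 ± 0.54 in combination tumours, 0.80 ± 0.54 in anti-PD-1 tumours and 0.13 ± 0.54 in EPAT tumours (SE), with edgeR adjusted p of 0.504, 0.675 and 1.00. Without vehicle replicate 3 these fold changes were 1.27, 1.35 and 0.68, and the value of Cd8a for combination was then 1.39. Leaving out the highest vehicle library raises them by construction. Cd4 rested on few tags, between 4 and 147 per library, so its counting error was larger than that of Cd8a.

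**Figure D2:**
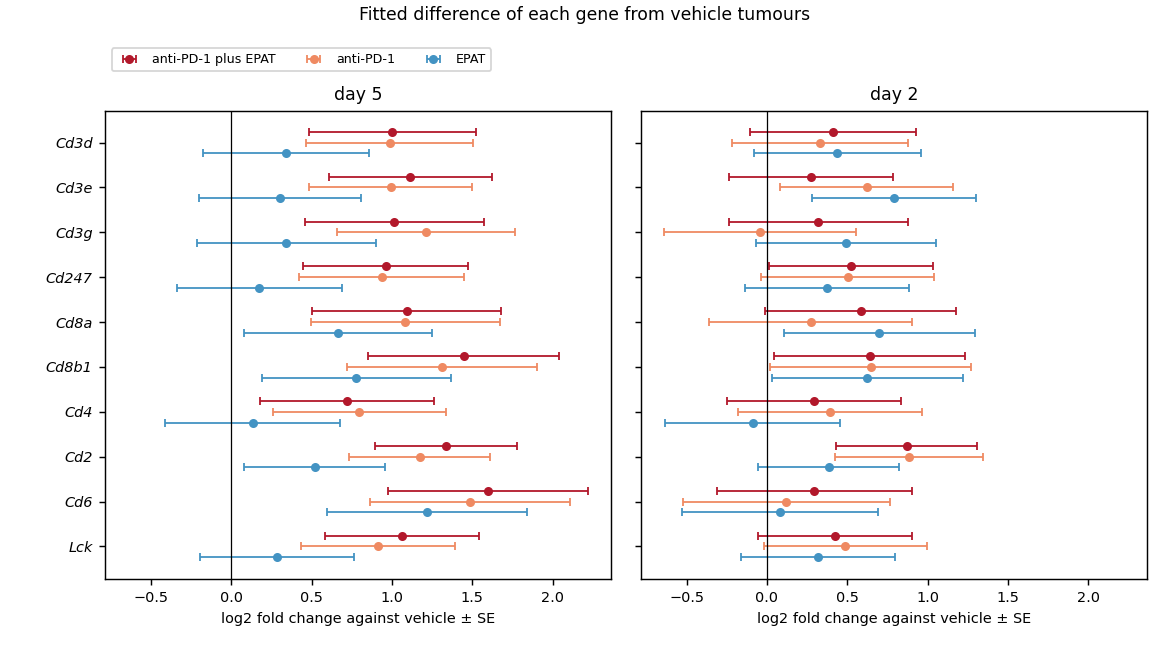
Log2 fold change against vehicle tumours of each gene, with its SE, for combination (anti-PD-1 plus EPAT), anti-PD-1 and EPAT tumours on day 5 (left) and day 2 (right). On day 5 the combination and anti-PD-1 points lie between 0.72 and 1.60, with Cd4 lowest, and on day 2 they lie between -0.04 and 0.88.

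Cd8 was set against Cd4 within each library, by the log2 ratio of Cd8a to Cd4 tags with 0.5 added to each count, a value that does not depend on the scaling between libraries. Where tags are few, the added 0.5 and the counting error weigh on it. Cd8a exceeded Cd4 in 38 of 39 libraries, by 2.04-fold to 24-fold with a median of 5.46-fold. The exception was replicate 2 of the combination tumours on day 2, with 1 Cd8a and 13 Cd4 tags, so that Cd8a made up 7.14% of the tags of both genes (95% exact Clopper-Pearson interval 0.181% to 33.9%, covering counting error only). The highest ratio, in replicate 3 of the EPAT tumours on day 5, rested on 4 Cd4 tags beside 96 Cd8a tags, a Cd8a share of 96.0% (interval 90.1% to 98.9%). The ratio of tags also carries any difference in how well the 3′ end of each gene was sampled, so it is read between groups. Which cells carried the Cd8a and Cd4 tags was not tested, so the ratio is not one of T cell numbers.

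On day 5 Cd8a stood at 10.4, 4.70, 6.71, 13.8 and 3.09 tags per Cd4 tag in combination tumours, and at 9.53, 4.32, 4.88, 8.53 and 4.81 in anti-PD-1 tumours. It stood at 7.08, 10.2, 24, 9.53 and 5.32 in EPAT tumours, and at 4.56, 8.80, 4.13, 6.44 and 6.25 in vehicle tumours. Every treated group overlapped the vehicle range. The mean log2 ratio was 2.74 ± 0.86 in combination, 2.59 ± 0.53 in anti-PD-1, 3.24 ± 0.76 in EPAT and 2.52 ± 0.43 in vehicle tumours (SD, n = 5 each). The difference in mean log2 ratio from vehicle was 0.22 in combination tumours (exact permutation test, 2-sided, p = 0.627), 0.06 in anti-PD-1 tumours (exact p = 0.825) and 0.72 in EPAT tumours (exact p = 0.0952, adjusted p = 0.444). Combination differed from anti-PD-1 by 0.15 (exact p = 0.722) and from EPAT by -0.50 (exact p = 0.349). The adjustment was over 14 comparisons, and the smallest p these group sizes allow is 0.00794.

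**Figure D3:**
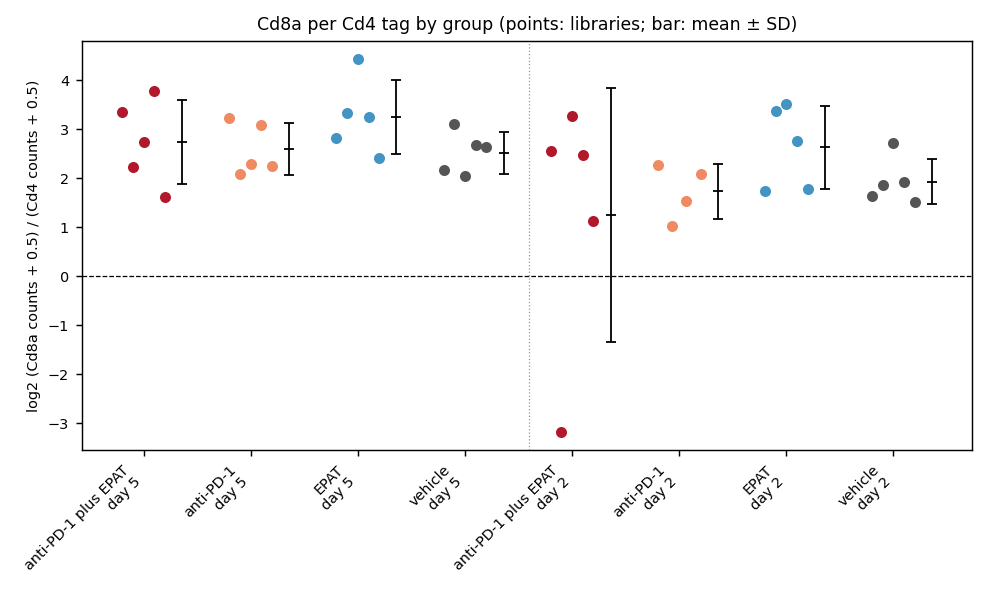
Log2 ratio of Cd8a to Cd4 tags (0.5 added to each count) in every library by group, with bars for the mean ± SD; day 5 groups are left of the dotted line and day 2 groups right of it, and the dashed line marks equal counts. The day 5 means lie between 2.52 and 3.24, and 1 combination library of day 2 is the single point under 0.

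On day 2 Cd8a stood at 5.95, 0.0769, 9.86, 5.60 and 2.19 tags per Cd4 tag in combination tumours, and at 4.88, 2.04, 2.91 and 4.28 in anti-PD-1 tumours. It stood at 3.39, 10.4, 11.6, 6.80 and 3.44 in EPAT tumours, and at 3.13, 3.73, 6.66, 3.85 and 2.88 in vehicle tumours. The mean log2 ratio was 1.25 ± 2.59 in combination tumours (SD, n = 5) and 2.36 ± 0.90 without the library that nearly lacked Cd8a (SD, n = 4). It was 1.73 ± 0.57 in anti-PD-1 (SD, n = 4), 2.63 ± 0.84 in EPAT (SD, n = 5) and 1.93 ± 0.47 in vehicle tumours (SD, n = 5). EPAT exceeded vehicle by 0.70 (exact permutation p = 0.151, adjusted p = 0.528), a difference close in size to that of day 5, and neither passed. Combination differed from vehicle by -0.68 with all libraries (exact permutation p = 0.825) and by 0.43 without that library (exact p = 0.365).

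Between days, the ratio was higher on day 5 than on day 2 in the mean of all 4 treatments. The difference in mean log2 ratio was 1.49 in combination tumours (0.38 without replicate 2 of day 2), 0.86 in anti-PD-1 tumours, 0.61 in EPAT tumours and 0.59 in vehicle tumours. None passed: the exact permutation p was 0.262, 0.0556, 0.286 and 0.0714 in that order, and the adjusted p was 0.603 for combination and EPAT tumours and 0.444 for anti-PD-1 and vehicle tumours. Vehicle tumours shared this direction.

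**Figure D4:**
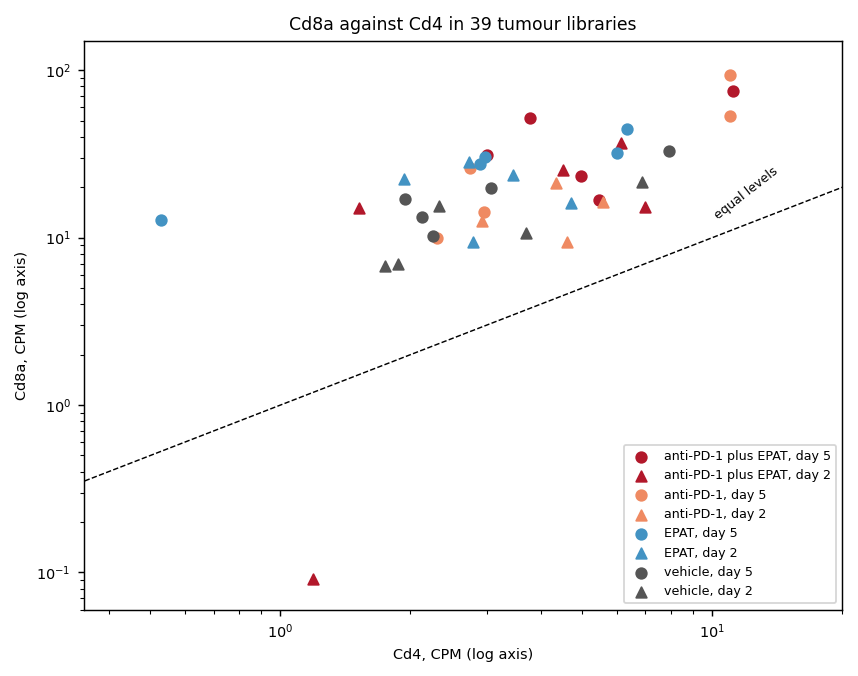
Cd8a against Cd4 level in every library, in TMM-scaled CPM on log axes, with colour for treatment and marker for day; the line marks equal levels. All libraries but 1 combination library of day 2 lie on the Cd8a side of the line, and both levels range widely within each treatment.

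Among the other surface molecules, Cd2 (chr3:101275899-101287939, minus strand), an adhesion receptor that NK cells also carry, had the smallest unadjusted p of the 10 genes for combination against vehicle on day 5. Cd2 had 24.3, 17.9, 50.6, 41.9 and 21.2 CPM in combination tumours, against 9.54, 10.3, 22.2, 10.4 and 9.5 CPM in vehicle tumours. Vehicle replicate 3 alone reached the combination range. The log2 fold change was 1.34 ± 0.44 (SE), and the edgeR adjusted p was 0.182. In anti-PD-1 tumours Cd2 had 15.8, 8.71, 34.998, 63.7 and 16.1 CPM, a log2 fold change of 1.17 ± 0.44 against vehicle (SE; edgeR adjusted p = 0.645).

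Cd6 (chr19:10789341-10830058, minus strand), a scavenger-receptor family protein that tunes T cell receptor signals, had 10.2, 4.47, 8.38, 6.14 and 4.58 CPM in combination tumours on day 5, against 1.00, 0.872, 4.31, 3.35 and 1.59 CPM in vehicle tumours. It was the single gene of the 10 whose combination and vehicle libraries did not overlap, a pattern found in 1.57% of all genes tested. The lowest combination library stood at 4.47 CPM and the highest vehicle library at 4.31 CPM. The log2 fold change was 1.60 ± 0.62 (SE), the largest of the 10, with an edgeR adjusted p of 0.227. In EPAT tumours Cd6 had 10.4, 2.61, 1.32, 4.88 and 6.47 CPM, a log2 fold change of 1.22 ± 0.62 against vehicle (SE; edgeR adjusted p = 1.00). The vehicle level of Cd6 was itself lower on day 5 than on day 2, by a log2 fold change of -0.68 ± 0.62 (SE) that did not pass, and day 2 vehicle libraries had 7.69, 0.874, 2.57, 2.72 and 3.79 CPM.

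Lck (chr4:129548344-129573641, minus strand), the kinase that starts the signal, had 39.5, 27.8, 63.3, 50.8 and 24.5 CPM in combination tumours on day 5, against 15.1, 18.03, 29.6, 19.97 and 15.99 CPM in vehicle tumours. Only the lowest pair of combination libraries lay within the vehicle range. The log2 fold change was 1.06 ± 0.48 (SE; edgeR adjusted p = 0.275). Of 20 further genes of T cell receptor signalling, 19 were tested, and all 19 had a fold change above 0 for combination against vehicle on day 5, with a median of 0.85 and a range of 0.37 to 1.40. None of the 19 passed edgeR's test, and 10 were higher at an unadjusted p under 0.05, as were 7.21% of all genes. For anti-PD-1 against vehicle all 19 were again above 0, with a median of 0.81, none passed, and 7 were higher at an unadjusted p under 0.05, as were 4.57% of all genes. These comparisons share their vehicle libraries. Of the 8 markers of naive and lymph node T cells, 5 had a fold change above 0 and 3 below 0 for combination against vehicle on day 5, with a median of 0.25, and none passed.

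Markers of other cell types varied beside these genes. The summed level of the 9 macrophage and dendritic cell markers on day 5 lay between 840 and 1609 CPM in combination tumours, 508 and 1968 CPM in anti-PD-1 tumours, 338 and 943 CPM in EPAT tumours, and 525 and 1016 CPM in vehicle tumours. All 9 markers had a fold change above 0 for combination against vehicle, with a median of 0.60, and none passed. Csf1r, a macrophage receptor, had the smallest p of these, with a log2 fold change of 0.99 ± 0.39 (SE; edgeR adjusted p = 0.226). The summed level of the 8 NK cell markers lay between 186 and 443 CPM in combination tumours and 276 and 513 CPM in vehicle tumours on day 5. Most of that sum came from Klra4, a member of a family of near-identical genes whose tags may be shared. Klra4 had a log2 fold change of -0.78 ± 0.34 for combination against vehicle (SE; edgeR adjusted p = 0.257), while the other 7 NK cell markers had one above 0. The median over the 8 was 0.63, and the highest was Klrk1, an activating receptor that some CD8 T cells also carry, at 1.01 ± 0.40 (SE; edgeR adjusted p = 0.228). None of the 8 passed. Replicate 4 of the anti-PD-1 tumours on day 5, which had the highest Cd8a level, also had the highest summed macrophage markers, 1968 CPM, and the highest summed skeletal muscle markers, 12035 CPM. Lung transcripts were also present. On day 5 the summed level of the 5 lung markers had a median of 68.6 CPM in vehicle tumours. The medians were 0.575 CPM in combination, 1.12 CPM in anti-PD-1 and 1.01 CPM in EPAT tumours. Each group ranged widely, from 0.388 to 103 CPM in vehicle and from 0.390 to 84.7 CPM in combination tumours. With a lung marker covariate in the model, 0 of the 10 T cell genes passed in any of 10 comparisons. The part of these cells or tissues in the T cell gene levels was not tested.

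Combination and anti-PD-1 tumours had close means in these genes on day 5. For combination against anti-PD-1 on day 5, 0 of the 10 genes passed, where 0.0199% of all genes did, and the log2 fold changes lay between -0.20 and 0.16, with SE between 0.43 and 0.60. None had an unadjusted p under 0.05, where 6.31% of all genes did, and SE of this size leave differences in either direction within the error. For combination against EPAT on day 5, 0 of 10 passed, where 0% of all genes did. All 10 fold changes were above 0, with a median of 0.67 and a range of 0.38 to 0.82. None of the 10 had an unadjusted p under 0.05, where 12.7% of all genes did. Without the 3 libraries named for their titles, 2 of 10 were higher at an unadjusted p under 0.05, against 7.57% of all genes, with a median of 0.90. The test of whether the EPAT effect differed with and without anti-PD-1 called 0 of 10 genes on either day, where 0% of all genes passed. With every library kept, none of the 10 had an unadjusted p under 0.05, where 7.28% of all genes did on day 2 and 3.1% on day 5. On day 2 the median interaction term was -0.37, with 1 of 10 above 0, as were 51.0% of all genes. With both libraries that stood apart left out, that median was -0.44, between -1.35 and -0.10. In that setting 1 of 10 had an unadjusted p under 0.05, against 5.16% of all genes, and 0 of 10 passed. On day 5 all 10 of these interaction terms lay below 0, between -1.11 and -0.14, where 46.0% of all genes had one above 0 and their median was -0.03.

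On day 2 the medians against vehicle lay close together in edgeR's fit when every library was kept. The median log2 fold change of the 10 genes was 0.42 for combination, 0.44 for anti-PD-1 and 0.41 for EPAT. In each, 0 of 10 genes passed, as 0% of all genes did. None of the 10 had an unadjusted p under 0.05, where 10.2%, 7.12% and 6.23% of all genes did in that order. The medians were less close with limma-trend on the deposited log2 values, at -0.09, 0.60 and 0.58 with every library kept. In that setting 4 of 10 genes lay above 0 for combination, and 10 of 10 for anti-PD-1 and for EPAT. There 0 of 10 passed in each, where at most 1 of 16095 genes did. Cd8a had 36.6, 0.0917, 14.9, 25.2 and 15.3 CPM in combination tumours, and 21.2, 9.43, 16.2 and 12.5 CPM in anti-PD-1 tumours. It had 9.47, 28.3, 22.3, 23.5 and 16.2 CPM in EPAT tumours, and 21.5, 6.99, 15.5, 6.72 and 10.6 CPM in vehicle tumours. The combination group held both the highest and the lowest library of the day. With both libraries that stood apart left out, the median in edgeR's fit was 1.15 for combination, 0.92 for anti-PD-1 and 0.81 for EPAT. In each, 0 of 10 genes passed, as 0 of 14994 genes did. The combination library left out was the lowest of its group in all 10 genes, and the vehicle library left out was the highest of its group in all 10. Leaving them out therefore raises these fold changes by construction, and no result is read from the higher medians.

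In the library that nearly lacked T cell transcripts, the 10 genes were low to different degrees. In it Cd8a, Cd8b1, Cd6 and Cd3g had 1, 2, 2 and 3 tags, and Cd3e, Cd3d, Cd247 and Lck had 9, 13, 14 and 21. Cd2 had 86 tags, or 7.88 CPM, a level above that of 2 libraries of other groups. Cd4 had 13 tags, or 1.19 CPM, and only replicate 3 of the EPAT tumours on day 5 had less, at 0.528 CPM. Its summed macrophage and dendritic cell markers, at 879 CPM, lay within the range of 672 to 1012 CPM of its group, while its summed NK cell markers, at 192 CPM, were the lowest of the group. Its library total was the lowest of its group and lay above the lowest of the series, 8385741 counts.

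Between the days, the size of the differences in combination and vehicle tumours moved with the libraries that stood apart. The median log2 fold change of day 5 against day 2 was 0.80 in combination tumours, 0.73 in anti-PD-1 tumours, 0.23 in EPAT tumours and 0.21 in vehicle tumours. With both libraries that stood apart left out it was 0.50 in combination tumours and 0.60 in vehicle tumours. The combination library left out was the lowest of its group in all 10 genes, and the vehicle library the highest. Leaving them out therefore moves these medians by construction, and no ranking of treatments is read from them. Without the 3 libraries named for their titles the median was -0.05 in EPAT tumours. In combination tumours 0 of 10 genes passed, where 0.0133% of all genes did, and Cd3e and Cd8b1 were higher at an unadjusted p under 0.05, 2 of 10 against 4.8% of all genes. In anti-PD-1 tumours 0 of 10 passed, where 0% of all genes did, and Cd3g and Cd8a were higher at an unadjusted p under 0.05, 2 of 10 against 4.76% of all genes. The difference itself was tested. The effect against vehicle on day 5 less that on day 2 had a median of 0.62 for combination, 0.54 for anti-PD-1 and -0.03 for EPAT. For each, 0 of 10 passed, where 0% of all genes did. None of the 10 had an unadjusted p under 0.05, where 3.5%, 3.34% and 5.22% of all genes did in that order. With both libraries that stood apart left out, the medians were -0.05, 0.12 and -0.39, which also moved by construction. Again 0 of 10 passed, as 0 of 14994 genes did. None of the 10 had an unadjusted p under 0.05, where 2.27%, 2.69% and 5.27% of all genes did.

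Across the 39 libraries the 10 genes varied together to different degrees. Cd3e and Cd8a levels correlated at Pearson r = 0.91 and Spearman rho = 0.84, and Cd8a and Cd8b1 at r = 0.96 and rho = 0.89. Cd3e and Cd4 correlated at r = 0.67 and rho = 0.68, and Cd8a and Cd4 at r = 0.61 and rho = 0.63. In a permutation test with 100000 resamples, 2-sided, p was 1e-05, the smallest it can give, for each but Cd8a with Cd4, where it was 4e-05 for r and 3e-05 for rho; adjusted over the 4 relations the largest was 4e-05. Without the farthest pair of libraries, r was 0.84, 0.90, 0.61 and 0.58 in the same order. With group means removed it was 0.91, 0.95, 0.68 and 0.63, so each relation was also present within groups.

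Likeness to the mean log2 CPM of Cd3d, Cd3e and Cd3g is given as a description over the 39 libraries. Lck and Cd8a stood at r = 0.96, Cd8b1 at 0.95, Cd247 at 0.86, Cd6 at 0.83, Cd2 at 0.79 and Cd4 at 0.70. Outside the 10 genes, the closest of 11591 candidates were Ms4a4b at r = 0.95, Lat and Themis at 0.94, Cd28 at 0.93, Bcl11b and Nkg7 at 0.92, and Spn and Cd27 at 0.91. Lat encodes an adaptor of T cell receptor signalling, Themis and Bcl11b act in T cell development, Cd28 and Cd27 are costimulatory receptors, and Nkg7 belongs to cytotoxic granules. The genes closest to Cd4 were Gstt2 at r = 0.87, Satb1 at 0.85, Nts at 0.85 and Mknk1 and Nlrc4 at 0.84, and no gene stood on both lists. Satb1 encodes a chromatin organiser active in T cells, and Nlrc4 an inflammasome sensor of myeloid cells.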

How the data were processed

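Bulk tumour RNA was sequenced from 39 libraries in 8 treatment and day groups. Libraries were made with a QuantSeq forward 3′ kit from 500 ng of total RNA, per the labels' protocols, so tags fall near poly(A) ends. The authors deposited whole-number counts by Ensembl gene, and log2 CPM in a second table. Per the submitters' processing notes, bcl2fastq, STAR, featureCounts and limma were used with mm10 and GRCm38. Their versions, the gene models and the strand setting were not given in the sources used here. Reads of overlapping and antisense genes, as at Cd3e and Cd247, are therefore uncertain. Symbols were matched for 37607 of 39179 identifiers, and positions were read from a GENCODE annotation of GRCm38.

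The 10 genes were read from a fit to all genes. Genes were kept by filterByExpr of edgeR 4.0.16 (minimum count 10, minimum total 15; 15070 genes), scaled by TMM and fitted with a robust quasi-likelihood model to all libraries with 1 mean per group (31 residual degrees of freedom). The quasi-likelihood F test of edgeR gave the p-values, adjusted by Benjamini-Hochberg over all genes tested with a threshold of 0.05, in 19 comparisons. The SE was obtained as the log2 fold change over the square root of the F statistic. The model was tested on simulated data. The Cd8a to Cd4 ratio was compared by exact permutation tests (scipy 1.17.1). Libraries of a group always differed beyond counting noise (chi-square per gene at least 10.7). Alternatives were RLE scaling, no filter, DESeq2 1.42.0, limma-trend 3.58.1 on the deposited log2 values, only the libraries compared, a lung marker covariate, other ratio definitions and each replicate left out; leaving out both libraries that stood apart, and leaving out the 3 whose titles carry the number of the other day, were chosen after seeing the data. Replicate numbers follow the order of the samples and pair nothing.

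All 10 genes were always reported, with members of other lists named only where they passed, and otherwise chosen after their values were seen (Trbc1, Trbc2, Trac, Csf1r, Klra4, Klrk1 and the melanoma and lymph node markers). Genes of like pattern were the 8 with the highest r to the CD3 mean and the 5 with the highest r to Cd4, among tested genes with a mean log2 CPM of at least 1. The 10 genes and the lists were chosen with earlier results of these data known.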

Additional observations from a re-analysis of the deposited data

Results flagged for a closer look

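Of 88 sets of values tested, each gene and the Cd8a to Cd4 ratio in each group, 7 held a library far from the others of its group, and chance gives about 1 in 20. A library counted as far when its gap to the nearest other one, divided by the range of the group, passed Dixon's critical value, 0.71 for 5 libraries. Values here are log2 CPM.

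In combination tumours on day 2, replicate 2 lay far below the others in Cd8a (-1.97), Cd8b1 (-1.53), Cd3g (-1.19) and Lck (1.06). These 4 values come from the same library and are not separate events. In EPAT tumours on day 5, replicate 3 lay far below the others in Cd3d (3.37), and the same library held the highest Cd8a to Cd4 ratio of the series. In EPAT tumours on day 2, replicate 2 lay far above the others in Cd247 (4.58). In vehicle tumours on day 5, replicate 3 lay far above the others in Cd2 (4.48). Without that library the smallest edgeR adjusted p of the 10 genes for combination against vehicle on day 5 was 0.0569, against 0.182 with it. That library was the highest of its group in all 10 genes, so leaving it out raises the fold changes by construction.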

How the results depend on the processing

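The count of called genes stayed at 0 of 10 in the 169 alternative counts run. The smallest adjusted p among the 10 genes was 0.0569 without replicate 3 of the vehicle tumours on day 5 and 0.0779 with DESeq2, both for combination against vehicle on day 5. The first left out the highest vehicle library, which raises these fold changes by construction. Of the fold changes of Cd3e, Cd8a and Cd4, 9, 12 and 23 alternative values turned sign, as did 12 of the ratio; none of these results was called, and the cause was not tested.

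With limma-trend on the deposited log2 values, signs turned on day 2 for combination against vehicle in Cd3e (-0.055) and Cd8a (-0.51), combination against anti-PD-1 in Cd8a (-0.86) and EPAT against vehicle in Cd4 (0.058), and on day 5 for EPAT against vehicle (-0.054) and combination against anti-PD-1 (0.13) in Cd4. With both libraries that stood apart left out, they turned on day 2 for Cd4 in EPAT against vehicle (0.37) and combination against anti-PD-1 (0.13) and for Cd8a in combination against EPAT (0.20). That setting also turned the log2 ratio difference of combination against vehicle (0.35) and against anti-PD-1 (0.63) on day 2. With the 3 libraries named for their titles left out, signs turned on day 5 for Cd4 in EPAT against vehicle (-0.12) and for Cd3e (-0.062) and Cd8a (-0.19) in combination against anti-PD-1. Cd8b1 in place of Cd8a turned anti-PD-1 against vehicle on day 2 (0.083).

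Leaving out 1 replicate at a time turned signs in these ranges. For Cd4, the log2 fold change lay between -0.13 and 0.68 in EPAT against vehicle on day 5, -0.28 and 0.37 on day 2, -0.49 and 0.51 in vehicle on day 5 against day 2, -0.48 and 0.26 in combination against anti-PD-1 on day 5, and -0.38 and 0.13 on day 2. For Cd8a it lay between -0.35 and 0.62 in combination against anti-PD-1 on day 5, -0.094 and 0.63 on day 2, and -0.52 and 0.20 in combination against EPAT on day 2. For Cd3e it lay between -0.14 and 0.81 in combination against anti-PD-1 on day 5 and -0.29 and 0.17 in EPAT on day 5 against day 2. The log2 ratio difference lay between -0.040 and 0.50 in combination against vehicle on day 5, -1.18 and 0.43 on day 2, -0.10 and 0.21 in anti-PD-1 against vehicle on day 5, -0.39 and 0.032 on day 2, -0.10 and 0.43 in combination against anti-PD-1 on day 5, and -0.98 and 0.63 on day 2.

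The number of genes called overall for combination against vehicle on day 5 was 4, and 67 with DESeq2. Few Cd4 tags per library limit the ratio. No paired analysis was possible because replicate numbers follow sample order and the labels tie no tumours across groups.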
